A study of Mus musculus with 11 samples.

Results

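The genes described are the chemokines, the interleukins and the receptors of both, in mouse heart tissue in which Cd36, the gene of a membrane protein that takes up fatty acids, had been deleted in different cells. They were taken by symbol (Ccl, Ccr, Cxcl, Cxcr, Cx3c or Il followed by its number or letter) from a table of 23420 genes. Of 139 matching symbols, 65 had a mean of at least 5 normalized reads over the 11 libraries and are the members. They comprise 21 chemokine ligands, 9 chemokine receptors, 7 interleukin ligands, 27 interleukin receptor chains and 1 soluble inhibitor, Il18bp. The other 74 symbols lay below that mean, 17 of them at 0 in every library. Il18 (5.29) and Cxcr6 (5.45) lay just above it, and Ccl3 (4.25) and Il5 (4.45) just below.

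The strain label of all 11 samples, Control included, names a cross of Cd36 loxp mice. In CM KO hearts (3 libraries) Cd36 was deleted in cardiomyocytes through MHC-cre, which is driven by a cardiac myosin heavy chain promoter. EC KO hearts (3 libraries) lacked it in endothelial cells by way of Tie2-cre, a driver also known to act in blood cells. Total KO hearts (3 libraries) carried a total knockout whose making is not given in the sources used here. For the Control hearts (2 libraries) no Cre is named. Age, sex and the number of animals behind a library are not given, and a p-value here weighs a difference against the scatter of these libraries, which may be technical. The study asked how endothelial CD36 affects the uptake of fatty acids by tissues.

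Chemokines are small secreted proteins that guide leukocytes along gradients by binding receptors of the G protein-coupled family. Ligands of the Ccl family mostly draw monocytes, macrophages, eosinophils and T cells, and those of the Cxcl family draw neutrophils or lymphocytes. Interleukins are cytokines whose receptors are built from a ligand-binding chain and a chain shared between several cytokines, and many of them signal through Jak kinases and Stat factors. In the healthy heart, resident macrophages carry Cx3cr1 or Ccr2, and monocytes that carry Ccr2 enter after injury.

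Cd36 stood at 15792, 21610 and 21363 normalized reads in CM KO, 30308, 27804 and 25758 in EC KO, 18847, 23452 and 21266 in Total KO, and 44530 and 35425 in Control. Both Control libraries lay above every knockout library, and the fall of Cd36 in CM KO relative to Control passed (log2 difference -1.03 ± 0.17, SE; limma, adjusted p = 0.00882). The differences of EC KO (-0.51 ± 0.17; limma, adjusted p = 0.311) and Total KO (-0.91 ± 0.17; limma, adjusted p = 0.0871) from Control did not pass, and Total KO libraries still held 18847 to 23452 normalized reads of Cd36. A gene-level value of bulk tissue shows neither a deleted exon nor the cells that lost it, so it checks the labels only in part. A pair of libraries stood apart. EC KO replicate 1 held 2268403 reads, against 11157062 to 20105673 in the others, so that 1 read was worth 6.04 normalized reads there and 8 members were at 0. CM KO replicate 1 was the highest of the 11 libraries for 27 of 65 members (41.5%) and for 22.5% of all genes tested. Cardiomyocyte markers, as summed normalized reads over 8 genes, read 700400, 1029000 and 985800 in CM KO, 1312000, 1278000 and 1226000 in EC KO, 1293000, 1199000 and 1230000 in Total KO, and 1146000 and 1164000 in Control, so every library was rich in cardiomyocyte RNA. The numbers in the labels of the CM KO libraries and of the Total KO libraries form runs of their own, whereas EC KO and Control share a run. What these numbers stand for is not given, and a difference between the runs cannot be told apart from the knockout.

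CM KO hearts held more RNA of the chemokine receptors Ccr1 and Ccr2, of the chemokine Ccl6 and of the receptor chains Il17ra, Il4ra and Il13ra1 than Control hearts, and less Il15. In total, 7 of 65 members rose (10.8%), where 3.1% of all 13787 genes tested did, and 1 fell (1.54%), where 2.24% of all genes did. The median log2 difference was 0.41 over the members and -0.002 over all genes. Over all genes, calls in either direction were 737 of 13787 by limma, 1041 of 13787 by edgeR and 1277 of 13515 by DESeq2. Without CM KO replicate 1, and likewise without Control replicate 1, 0 of 65 members passed in limma (21 had an unadjusted p under 0.05 with all libraries); edgeR called 14 and DESeq2 13 with all libraries, all 8 called by limma among them. Over all genes 737 passed with all libraries, 357 without CM KO replicate 1 and 27 without Control replicate 1.

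More members passed between CM KO and the other knockouts. In CM KO against EC KO, 20 members were higher (30.8%, beside 9.9% of all genes) and 2 lower (3.08%, beside 8.08%), and in CM KO against Total KO 14 were higher (21.5%, beside 7.73%) and 3 lower (4.62%, beside 7.63%). The member medians were 0.53 and 0.46 on the log2 scale, beside 0.01 for all genes in both comparisons. An F test over the 4 groups called 17 members (26.2%), beside 13.4% of all genes. In all, 26 members passed in at least 1 comparison between groups in limma with all libraries and 39 in none. The rule for members took its mean over all 11 libraries, so that low members such as Cxcl13, Cxcl5 and Il18 reached 5 through CM KO. The counts include them. The comparisons with CM KO share its 3 libraries, so their values are given side by side and are not independent. Values of single libraries below are normalized reads, and differences are on the log2(value + 1) scale with their SE.

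**Figure D1:**
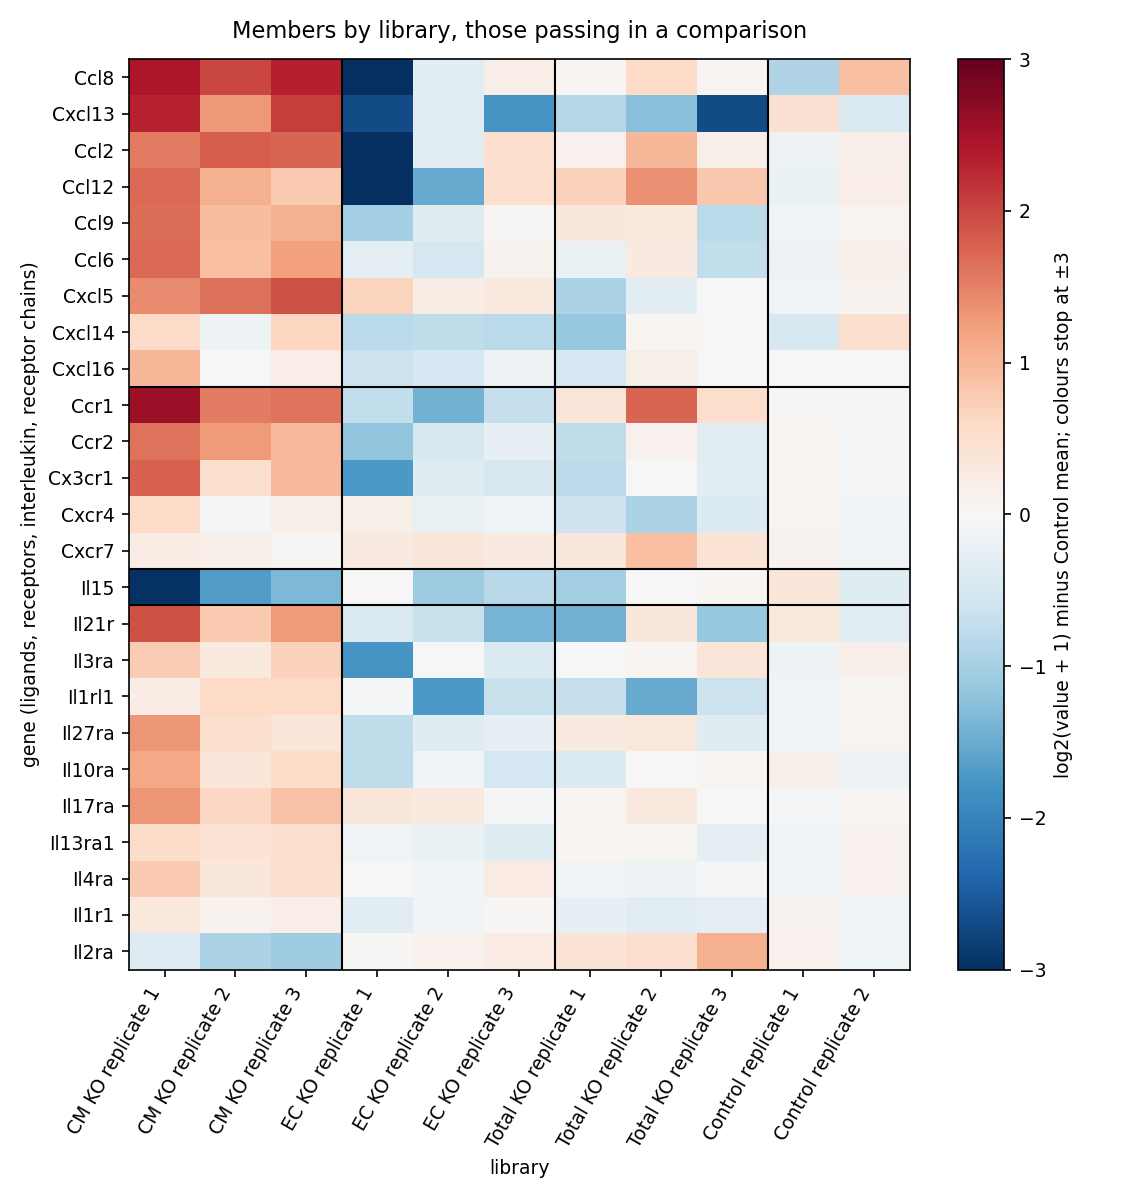
Each tile is the log2(value + 1) of a gene (rows) in a library (columns) minus the mean of the 2 Control libraries, for 25 members that passed in at least 1 comparison, with red above and blue below Control; horizontal lines part ligands, receptors, the interleukin Il15 and receptor chains. The 3 CM KO columns are red for most rows and blue for Il15 and Il2ra, and the first EC KO column is darkest blue where Ccl2, Ccl8 and Ccl12 were at 0.

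These CM KO hearts also held more RNA of macrophage markers. The summed normalized reads of 14 macrophage and monocyte markers were 18580, 10200 and 12490 in CM KO, 5239, 5149 and 5982 in EC KO, 5241, 7156 and 5800 in Total KO, and 5571 and 5949 in Control. Of the 14, 10 rose in CM KO against Control (71.4%, beside 3.1% of all genes). Fibroblast markers (8 genes) summed to 69800, 24860 and 32620 in CM KO, 16250, 15730 and 13900 in EC KO, 14450, 18340 and 15450 in Total KO, and 16730 and 17020 in Control. Of the 8, 4 rose in CM KO against Control (50%, beside 3.1% of all genes), among them the collagen genes Col1a1 and Col1a2. In a check added after seeing the data, 8 macrophage and 4 fibroblast markers rose without CM KO replicate 1, and 0 of either without Control replicate 1 (limma). Calls over all genes also fell when either of these libraries was left out, as given above. For both lists the CM KO libraries lay above all other libraries, with CM KO replicate 1 the highest, as it was for many members. In bulk tissue, more cells of a type and more RNA per cell cannot be told apart, and the part of these cells in the members' differences was not tested. Endothelial markers (10 genes) summed to 17020, 16510 and 16420 in CM KO and to 21350, 23140 and 20630 in EC KO. Total KO had 17640, 18470 and 18230, and Control 18050 and 18920, so CM KO lay below all other libraries. Of the 10, 6 were lower in CM KO than in EC KO (beside 8.08% of all genes) and 0 than in Control (limma). Their part in the members' differences was not tested either. The sums of 12 T and NK cell markers stayed between 25.5 and 68.7, those of 5 B cell markers between 12.1 and 31.6, those of 7 neutrophil markers between 18.1 and 81.6, those of 6 mast cell markers between 61.1 and 104 and those of 7 dendritic cell markers between 210 and 292. In each of these 5 lists the CM KO range overlapped that of the other libraries, for neutrophil markers only through Control replicate 1 (81.6). Neutrophil markers summed to 54.8, 49.2 and 47.4 in CM KO and to 43.5 or less in the remaining libraries. The mean of 5 was reached by 1 of the 12 T and NK cell markers and 2 of the 7 neutrophil markers. It was reached by 3 of the 5 B cell, 5 of the 6 mast cell and 4 of the 7 dendritic cell markers. Of those tested, 1 of 2 neutrophil and 1 of 4 dendritic cell markers were higher in CM KO than in EC KO (limma, beside 9.9% of all genes).

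**Figure D2:**
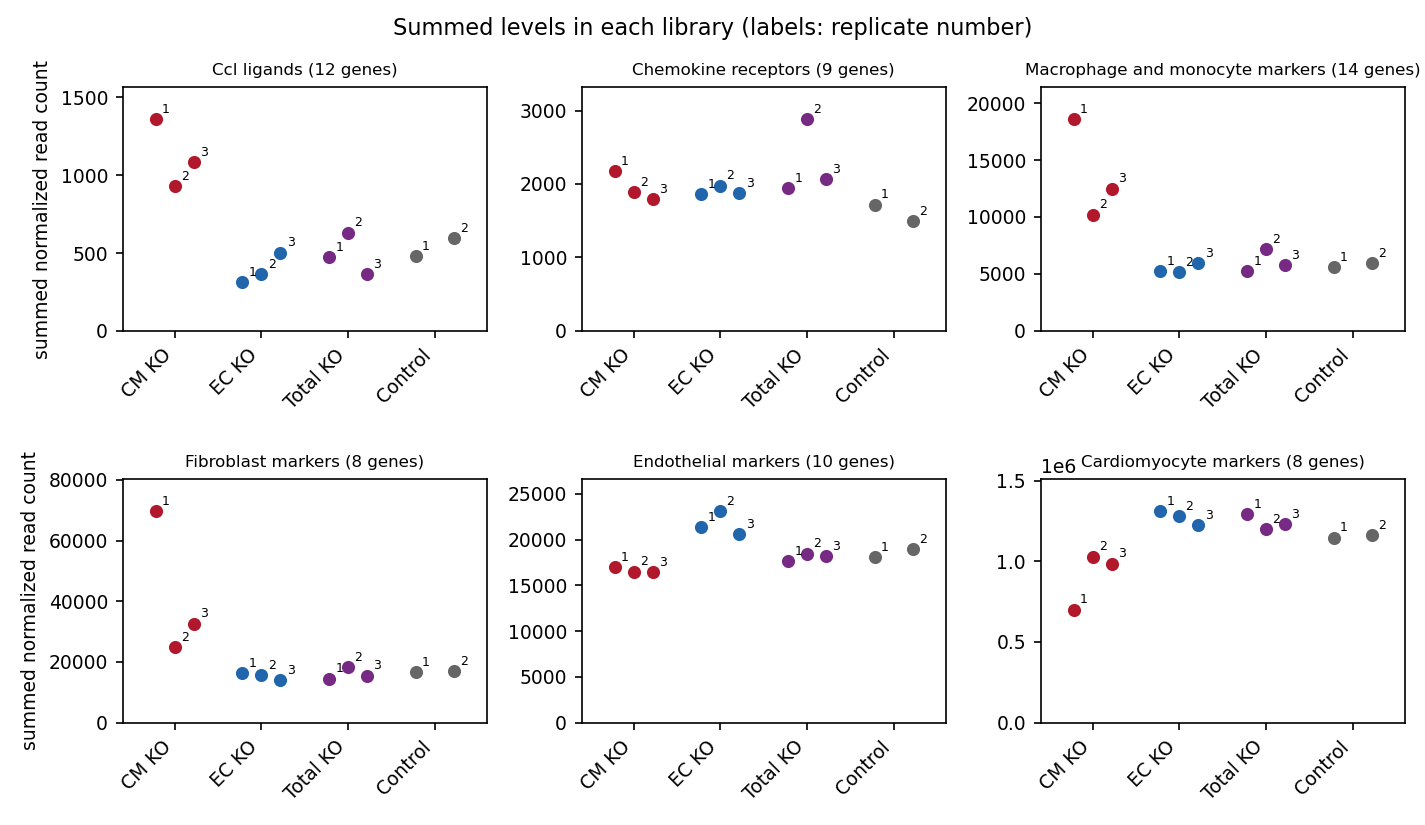
Summed normalized read counts in each library, drawn from 0, for the 12 Ccl ligands, the 9 chemokine receptors and 4 lists of cell type markers; points are libraries, numbered by replicate. CM KO lies above all other libraries for the Ccl ligands, the macrophage markers and the fibroblast markers, and below them for the endothelial and the cardiomyocyte markers.

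Among the 21 chemokine ligands, 1 rose in CM KO against Control (4.76%, near the 3.1% of all genes). In CM KO, 8 were higher than in EC KO (38.1%, beside 9.9%) and 4 higher than in Total KO (19.0%, beside 7.73%), and none was lower in those comparisons in limma. Of the 12 Ccl ligands, 8 lie on mouse chromosome 11 in a pair of gene groups. Ccl2, Ccl7, Ccl11, Ccl12 and Ccl8 lie at chr11:82035577-82116799, and Ccl5, Ccl9 and Ccl6 at chr11:83525778-83593087 (RefSeq, GRCm38.p6). In normalized reads, the summed Ccl ligands read 1359, 929.9 and 1082 in CM KO, 314, 365 and 502 in EC KO, 474, 632 and 365 in Total KO, and 479.6 and 594 in Control. Every CM KO library lay above all 8 others.

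Ccl6 and its neighbour Ccl9 are mouse chemokines made by macrophages that bind Ccr1. Because these neighbours were high in the same libraries, the 250 bases before the start of each are shown (RefSeq, GRCm38.p6, minus strand, chr11:83593088-83593337 for Ccl6 and chr11:83578637-83578886 for Ccl9). Capitals mark a TATA match, TATAAA or its reverse complement, which Ccl9 had at 3 starts, 2 of them overlapping, and Ccl6 at none.
Ccl6: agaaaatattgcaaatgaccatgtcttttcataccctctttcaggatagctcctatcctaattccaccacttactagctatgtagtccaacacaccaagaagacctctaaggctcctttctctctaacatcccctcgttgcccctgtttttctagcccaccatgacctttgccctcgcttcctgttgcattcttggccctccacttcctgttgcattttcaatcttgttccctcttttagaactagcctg
Ccl9: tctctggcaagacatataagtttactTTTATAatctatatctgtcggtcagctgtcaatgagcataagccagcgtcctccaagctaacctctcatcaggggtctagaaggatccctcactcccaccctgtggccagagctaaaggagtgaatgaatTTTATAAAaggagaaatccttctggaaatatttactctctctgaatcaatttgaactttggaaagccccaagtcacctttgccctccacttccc
The TATA letters occurred in 11 of the 47 members with a listed upstream sequence (23.4%) and in 13.0% of 27025 mouse genes. The letters GAGGAA, a core of the sites bound by the myeloid factor PU.1, were in neither Ccl6 nor Ccl9 and occurred in 23.4% of members and 23.1% of all genes. GGGANTTTC, part of an NF-kappaB site, occurred in 2 of the 47 members (4.3%), Cxcl1 and Cxcl9, and in 1.0% of all genes. The Stat motif TTCNNNGAA occurred in 3 of the 47 members (6.4%) and in 7.2% of all genes. All letters were searched on both strands, and a match is a description of these letters and not of binding.

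Ccl6 (chr11:83587886-83593087) had 697, 405 and 509 in CM KO, 175, 152 and 229.9 in EC KO, 186, 258 and 128 in Total KO, and 193 and 239 in Control. All 3 CM KO libraries lay above the 8 others, and the other 3 groups overlapped. Its rise in CM KO relative to Control passed (1.28 ± 0.28; limma, adjusted p = 0.0243), and its level exceeded that of EC KO (1.51 ± 0.25; limma, adjusted p = 0.00226) and of Total KO (1.51 ± 0.25; limma, adjusted p = 0.00413). Its difference from Control no longer passed without CM KO replicate 1 (1.08) and likewise without Control replicate 1 (1.13) or 2 (1.44), whereas the differences from both other knockouts passed in every alternative tried. Ccl9 (chr11:83572917-83578636) read 358, 214 and 236 in CM KO, 54.4, 86.1 and 115 in EC KO, 143, 139.8 and 63.4 in Total KO, and 106 and 118 in Control. Its CM KO libraries again lay above the rest. It was higher than in EC KO (1.68 ± 0.33; limma, adjusted p = 0.00505) and Total KO (1.27 ± 0.33; limma, adjusted p = 0.0213), and its difference from Control was 1.22 ± 0.36 (limma, adjusted p = 0.0737), which edgeR (1.25, adjusted p = 0.0329) and DESeq2 (1.26, adjusted p = 0.003) called. The call against Total KO was lost without CM KO replicate 1 (1.05) and likewise without Total KO replicate 3 (0.89).

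Ccl2, Ccl7 and Ccl12 are attractants of monocytes that bind Ccr2, and Ccl8 is a related chemokine. Ccl8 and Ccl12 are neighbours, and their upstream bases are shown because both held the PU.1 core and, close to the start, a TATA match; capitals mark both (RefSeq, GRCm38.p6, plus strand, chr11:82114935-82115184 and chr11:82101595-82101844).
Ccl8: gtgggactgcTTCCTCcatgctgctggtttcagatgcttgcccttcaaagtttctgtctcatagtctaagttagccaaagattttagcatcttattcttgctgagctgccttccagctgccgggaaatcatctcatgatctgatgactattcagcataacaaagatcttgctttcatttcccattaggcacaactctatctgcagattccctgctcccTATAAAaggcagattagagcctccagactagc
Ccl12: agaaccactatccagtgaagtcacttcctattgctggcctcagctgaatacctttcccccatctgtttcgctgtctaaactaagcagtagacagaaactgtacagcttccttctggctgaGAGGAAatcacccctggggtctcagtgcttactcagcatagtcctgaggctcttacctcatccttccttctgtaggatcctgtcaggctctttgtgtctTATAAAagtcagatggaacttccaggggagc
Ccl8 (chr11:82115185-82116799) read 103, 75.8 and 96.5 in CM KO, 0, 14.2 and 21.2 in EC KO, 19.1, 28.1 and 19.2 in Total KO, and 9.33 and 35 in Control. CM KO lay at 75.8 or more and every other library at 35.0 or less. It was higher in CM KO than in EC KO (3.73 ± 0.88; limma, adjusted p = 0.0129), and this passed in every alternative that kept the gene, with a smaller difference without EC KO replicate 1, where Ccl8 was at 0 (limma 2.32, adjusted p = 0.00846). Against Control the difference was 2.25 ± 0.99 in limma (adjusted p = 0.22) and did not pass, while edgeR (2.03, adjusted p = 0.0181) and DESeq2 (2.05, adjusted p = 0.000645) called it, as did limma without EC KO replicate 1 (2.25, adjusted p = 0.0191). That difference was 1.35 without Control replicate 1 and 3.16 without Control replicate 2, and neither passed in limma.

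Ccl2 had 43.2, 51.8 and 49.1 in CM KO, 0, 10.9 and 20.3 in EC KO, 15.3, 29 and 15.8 in Total KO, and 12.4 and 15.7 in Control. The CM KO libraries lay close together and above all others, while EC KO spread from 0 upwards. Its difference between CM KO and EC KO passed (2.95 ± 0.82; limma, adjusted p = 0.0267). This call was lost without CM KO replicate 1 (3.02), 2 (2.89) or 3 (2.93), and in a fit of the 2 groups compared. The difference was smaller without EC KO replicate 1, where Ccl2 was at 0 (limma 1.62, adjusted p = 0.0133). Against Control it was 1.71 ± 0.92 (limma, adjusted p = 0.326) and passed in edgeR (1.76, adjusted p = 0.0217), in DESeq2 (1.77, adjusted p = 0.00331) and, in limma, without EC KO replicate 1 (1.71, adjusted p = 0.0216). Ccl12 read 31.6, 20.1 and 16.4 in CM KO, 0, 2.51 and 13.3 in EC KO, 15.3, 24.7 and 16.7 in Total KO, and 7.77 and 10.4 in Control. Here CM KO and Total KO overlapped and both lay above EC KO and Control. Between CM KO and EC KO it passed (2.63 ± 0.72; limma, adjusted p = 0.0252), but not without CM KO replicate 1 (2.38) and likewise without EC KO replicate 1 (1.69) or 2 (2.60). Ccl7, with 30.1, 34.3 and 27 in CM KO, 18.1, 10.9 and 12.4 in EC KO, 6.37, 22.2 and 16.7 in Total KO, and 11.7 and 17.9 in Control, had its 3 highest libraries in CM KO and passed in no comparison in limma with all libraries (CM KO minus Control 1.02 ± 0.46; limma, adjusted p = 0.231), while edgeR (1.30, adjusted p = 0.0332) and DESeq2 (1.30, adjusted p = 0.0347) called CM KO minus EC KO.

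Ccl11, or eotaxin, which draws eosinophils through Ccr3, ran the other way. It read 24.7, 34.3 and 36 in CM KO, 12.1, 34.3 and 37.1 in EC KO, 36.9, 61.4 and 48.4 in Total KO, and 67.6 and 93.2 in Control, so that both Control libraries lay above all 9 knockout libraries. With all libraries limma called no difference (CM KO minus Control -1.32 ± 0.41; limma, adjusted p = 0.0884; EC KO minus Control -1.63 ± 0.41; limma, adjusted p = 0.16; Total KO minus Control -0.72 ± 0.41; limma, adjusted p = 0.758). By edgeR it was lower in CM KO (-1.35, adjusted p = 0.0152), and by DESeq2 in CM KO (-1.34, adjusted p = 0.00206) and in EC KO (-1.31, adjusted p = 0.0272), and by limma in CM KO without EC KO replicate 1 (-1.32, adjusted p = 0.0214). Its neighbours Ccl2, Ccl7, Ccl8 and Ccl12 had positive differences between CM KO and Control, from 1.02 to 2.26.

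The remaining Ccl ligands passed in no comparison in limma with all libraries. Ccl24, also called eotaxin-2, was 34 ± 10.1 in CM KO, 15.8 ± 4.32 in EC KO, 20.1 ± 8.06 in Total KO and 19 ± 0.516 in Control (mean ± SD, n = 3, or 2 for Control), and edgeR (1.17, adjusted p = 0.0452) and DESeq2 (1.17, adjusted p = 0.0494) called it higher in CM KO than in EC KO. Ccl5, a T cell chemokine that binds Ccr1, averaged 10.3 ± 4.5 in CM KO, 2.83 ± 2.93 in EC KO, 5.36 ± 1.34 in Total KO and 7.24 ± 0.751 in Control. Ccl28 and Ccl27a, ligands of Ccr10, and Ccl25, which draws T cells through Ccr9, had means of 7.34, 22.1 and 10.2 over the 11 libraries. Reads of Ccl27a are uncertain, since the mouse genome holds near-identical copies of it.

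Of the 8 Cxcl ligands, 3 were higher in CM KO than in EC KO (beside 9.9% of all genes) and 2 than in Total KO (beside 7.73%). Cxcl13, which draws B cells through Cxcr5, read 30.9, 14.9 and 26.2 in CM KO, 0, 4.18 and 0.884 in EC KO, 2.55, 1.71 and 0 in Total KO, and 7.77 and 3.73 in Control. Its 3 CM KO libraries lay above all others, and the other knockouts were near the floor, with 0, 5 and 1 reads in EC KO and 2, 2 and 0 in Total KO. Cxcl13 reached the bound of 5 through CM KO (mean 24.0), with means of 1.69 in EC KO, 1.42 in Total KO and 5.75 in Control. A member taken in through its CM KO values tends to be higher in CM KO, so its calls are not independent of the rule for members. CM KO was higher than EC KO (3.49 ± 0.71; limma, adjusted p = 0.0064) and Total KO (3.50 ± 0.71; limma, adjusted p = 0.00831), and both calls held in every alternative that kept the gene. Against Control the difference was 1.90 ± 0.79 (limma, adjusted p = 0.197; edgeR 2.03, adjusted p = 0.0427; DESeq2 2.06, adjusted p = 0.0506).

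Cxcl5, which draws neutrophils through Cxcr2, had 10.8, 12.9 and 15.5 in CM KO, 6.04, 4.18 and 4.42 in EC KO, 1.27, 2.56 and 3.34 in Total KO, and 3.11 and 3.73 in Control. CM KO lay above all other libraries and Total KO at or near the bottom. Cxcl5 too reached the bound of 5 through CM KO (mean 13.1), with means of 4.88 in EC KO, 2.39 in Total KO and 3.42 in Control. Its calls are therefore not independent of the rule for members. The difference from Total KO passed (2.09 ± 0.46; limma, adjusted p = 0.0117) in every alternative that kept the gene, and that from Control did not (1.66 ± 0.51; limma, adjusted p = 0.0831), although edgeR called it (1.89, adjusted p = 0.0194), as did limma without EC KO replicate 1 (1.66, adjusted p = 0.0483). Cxcl14, a chemokine made by many tissues without stimulation, read 948, 579 and 998 in CM KO, 362, 375 and 365 in EC KO, 293, 667 and 632 in Total KO, and 457 and 898 in Control. The EC KO libraries were alike and lay below both Control libraries. Only CM KO minus EC KO passed in limma (1.15 ± 0.31; limma, adjusted p = 0.0236), and not without any one of CM KO replicates 1 and 3, EC KO replicates 1, 2 and 3 (1.01 to 1.17).

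Cxcl16, a membrane-bound ligand of Cxcr6, had 300.1, 152 and 175 in CM KO, 96.7, 104 and 135 in EC KO, 104, 170.5 and 149 in Total KO, and 152 and 151 in Control. CM KO replicate 1 alone stood high, and the other CM KO libraries lay within the range of Control and Total KO or just above it. CM KO minus EC KO passed (0.84 ± 0.25; limma, adjusted p = 0.0324), but not without CM KO replicate 1 (0.55) and likewise without EC KO replicate 1 (0.75) or 2 (0.80). Of its exonic bases, 552 overlap Zmynd15 on the opposite strand, and the counting's use of strand is not given in the sources used here. Cxcl9, an interferon-induced attractant of T cells through Cxcr3, read 48.6, 39.5 and 61.3 in CM KO, 24.2, 46.8 and 55.7 in EC KO, 66.2, 107 and 95.9 in Total KO, and 62.2 and 107 in Control. Both CM KO and EC KO lay below both Control libraries, and Total KO overlapped Control. With all libraries it passed in no comparison in limma (CM KO minus Total KO -0.83 ± 0.32; limma, adjusted p = 0.1), while edgeR (-0.87, adjusted p = 0.0377), DESeq2 (-0.86, adjusted p = 0.0242) and limma without EC KO replicate 1 (-0.83, adjusted p = 0.0445) called it lower in CM KO than in Total KO. The other interferon-induced ligand, Cxcl10, and the neutrophil attractant Cxcl1 were low, with means of 7.58 and 10.9 over all libraries, and passed in no comparison in limma with all libraries.

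Cx3cl1, or fractalkine, the membrane-bound ligand of Cx3cr1, averaged 332 ± 105 in CM KO, 198 ± 14.5 in EC KO, 214 ± 67.6 in Total KO and 237 ± 91.5 in Control. It passed in no comparison in limma with all libraries, while DESeq2 called CM KO minus EC KO (0.73, adjusted p = 0.0412). Cxcl12, the homeostatic ligand of Cxcr4 and Cxcr7, averaged 4443 normalized reads, and its 11 libraries lay between 3318 and 5195. None of its differences passed in limma; Total KO minus Control was 0.34 ± 0.14 (limma, adjusted p = 0.547).

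Of the 9 chemokine receptors, 3 rose in CM KO against Control (beside 3.1% of all genes), 4 were higher in CM KO than in EC KO (beside 9.9%), and 3 were higher and 1 lower in CM KO than in Total KO (beside 7.73% and 7.63%). Cxcr6, Ccr1 and Ccr2 lie, in this order, within chr9:123806477-124109140. Ccr1, a receptor of Ccl5, Ccl6 and Ccl9 on monocytes and neutrophils, lies at chr9:123962126-123968692. Its upstream bases are shown because its difference between CM KO and EC KO had the lowest adjusted p of any member; capitals mark the PU.1 core GAGGAA (RefSeq, GRCm38.p6, minus strand, chr9:123968693-123968942).
Ccr1: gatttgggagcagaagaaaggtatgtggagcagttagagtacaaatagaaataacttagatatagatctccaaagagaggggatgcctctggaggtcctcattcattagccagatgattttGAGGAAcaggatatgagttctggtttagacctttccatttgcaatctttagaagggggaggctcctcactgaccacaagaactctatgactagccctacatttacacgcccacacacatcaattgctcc
Ccr1 read 67.9, 33 and 35.2 in CM KO, 6.04, 3.35 and 6.19 in EC KO, 14, 38.4 and 15.8 in Total KO, and 10.9 and 10.4 in Control. EC KO lay lowest, Control next, Total KO above both and CM KO at the top, where 1 Total KO library overlapped it. Ccr1 rose in CM KO relative to Control (1.91 ± 0.47; limma, adjusted p = 0.0368) and exceeded its level in EC KO (2.86 ± 0.42; limma, adjusted p = 0.00125), and the second of these passed in every alternative that kept the gene. The call against Control was lost without any one of CM KO replicates 1 and 3, Total KO replicate 3, Control replicates 1 and 2 (1.59 to 2.05). Total KO minus EC KO was 1.83 ± 0.42 and did not pass (limma, adjusted p = 0.176), except where each library had its own weight (1.98, adjusted p = 0.0268).

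Ccr2 (chr9:124101918-124109140), the receptor that lets monocytes leave the marrow and enter tissue, had 91, 70.6 and 57.2 in CM KO, 12.1, 20.1 and 23.9 in EC KO, 16.6, 31.6 and 22.5 in Total KO, and 29.5 and 27.6 in Control. The CM KO libraries lay above all others, and EC KO lay below Control. Ccr2 rose in CM KO relative to Control (1.30 ± 0.34; limma, adjusted p = 0.0483), and was also higher than in EC KO (1.94 ± 0.31; limma, adjusted p = 0.00181) and Total KO (1.61 ± 0.31; limma, adjusted p = 0.00674). Both differences from the other knockouts passed in every alternative that kept the gene, whereas that from Control did not pass without any one of CM KO replicates 1, 2 and 3, EC KO replicate 2, Total KO replicates 2 and 3, Control replicates 1 and 2 (1.13 to 1.46).

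Cx3cr1, the fractalkine receptor of resident macrophages, had 147, 58.9 and 83.4 in CM KO, 12.1, 32.6 and 30.1 in EC KO, 24.2, 41.8 and 33.4 in Total KO, and 44.3 and 40.3 in Control. CM KO was above every other library, with its first replicate far above. It was higher in CM KO than in EC KO (1.92 ± 0.39; limma, adjusted p = 0.00621) under every alternative that kept the gene, and than in Total KO (1.45 ± 0.39; limma, adjusted p = 0.0264), but in that comparison not without CM KO replicate 1 (1.09) or 3 (1.50) and likewise without Total KO replicate 1 (1.24) or 3 (1.47). The difference from Control was 1.07 ± 0.44 (limma, adjusted p = 0.185; DESeq2 1.19, adjusted p = 0.0312; edgeR 1.17, adjusted p = 0.0612).

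Macrophage markers moved with these receptors: the CM KO libraries, with 10200 to 18580 summed normalized reads, lay above the others, with 5149 to 7156. The part of macrophage number in the receptor differences was not tested.

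Cxcr4 and Cxcr7, the signalling and the scavenging receptor of Cxcl12, differed in CM KO against Total KO in opposite directions. Cxcr7 is now named Ackr3. Cxcr4 read 113, 73.2 and 85.9 in CM KO, 84.6, 64.4 and 69 in EC KO, 48.4, 38.4 and 56.7 in Total KO, and 80.1 and 70.8 in Control. The Total KO libraries lay below all 8 others. CM KO was higher than Total KO (0.91 ± 0.21; limma, adjusted p = 0.0144), but not without CM KO replicate 1 (0.73) and likewise without Total KO replicate 2 (0.76), and Total KO minus Control was -0.66 ± 0.23 (limma, adjusted p = 0.457). Cxcr7 read 1641, 1564 and 1452 in CM KO, 1686, 1813 and 1706 in EC KO, 1794, 2647 and 1881 in Total KO, and 1519 and 1308 in Control. Total KO replicate 2 stood highest, and the 3 Total KO libraries lay above CM KO and Control. CM KO was lower than Total KO (-0.42 ± 0.13; limma, adjusted p = 0.0465), a call lost without any one of CM KO replicates 1, 2 and 3, EC KO replicates 1, 2 and 3, Total KO replicates 2 and 3 (-0.49 to -0.24). Total KO minus Control was 0.56 ± 0.15 (limma, adjusted p = 0.271), with the lowest adjusted p of any member in that comparison.

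Cxcr5, Cxcr6 and Ccr10 were near the lower bound and passed in no comparison in limma. Cxcr5, the Cxcl13 receptor of B cells, had 4.63, 5.18 and 6.54 in CM KO, 18.1, 6.69 and 7.96 in EC KO, 6.37, 4.26 and 9.18 in Total KO, and 7 and 2.98 in Control. Cxcr6, which pairs with Cxcl16, had 10.8, 6.48 and 6.54 in CM KO, 6.04, 7.53 and 2.65 in EC KO, 3.82, 6.82 and 1.67 in Total KO, and 4.66 and 2.98 in Control. Ccr10 read 9.26, 7.77 and 7.36 in CM KO, 6.04, 8.36 and 7.96 in EC KO, 17.8, 11.9 and 7.51 in Total KO, and 6.22 and 11.9 in Control. Every knockout group overlapped Control for these genes, except CM KO for Cxcr6, which lay above it. In EC KO replicate 1, Cxcr6 and Ccr10 rested on 1 read each.

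**Figure D3:**
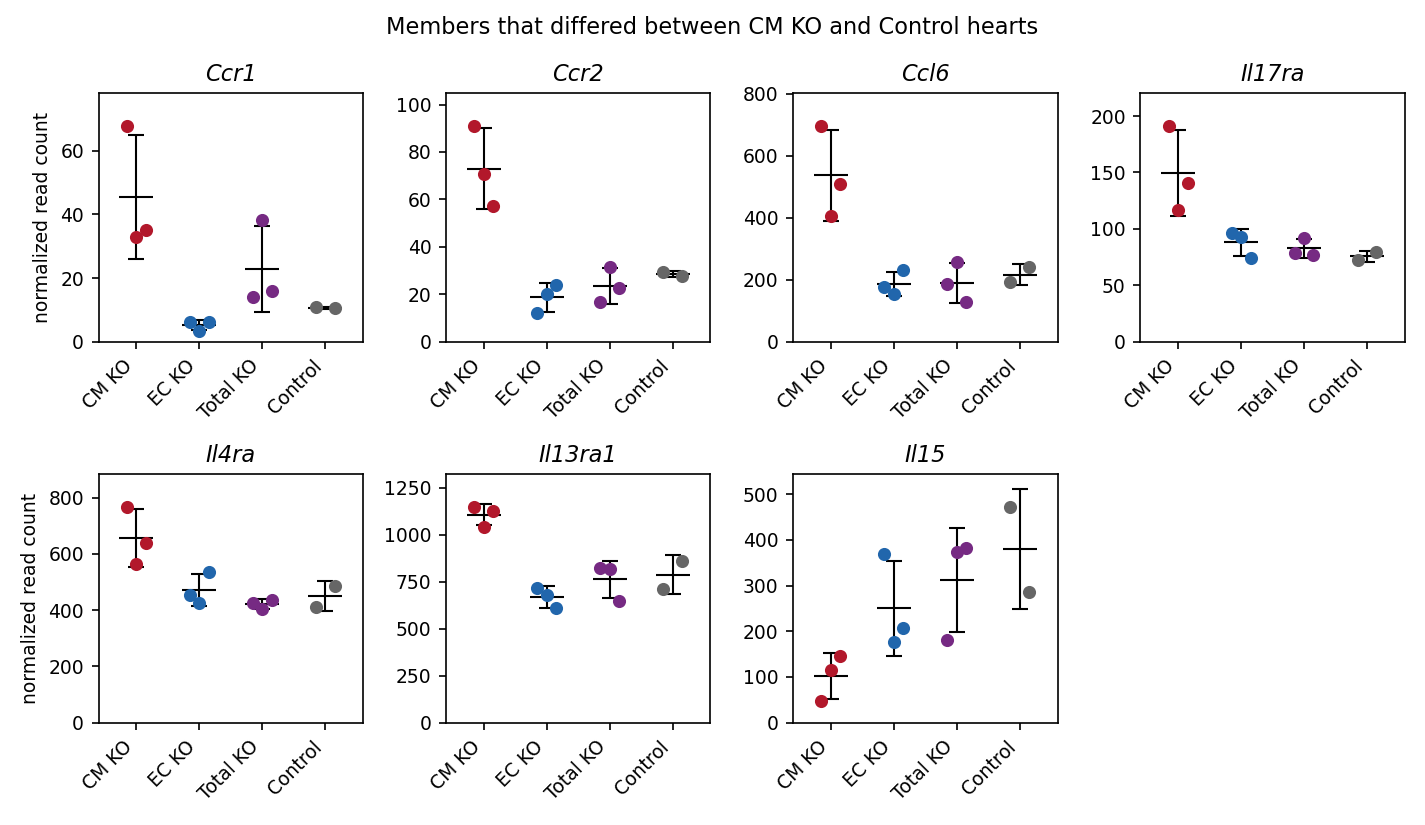
Normalized read counts of 7 members that passed between CM KO and Control, by group; points are libraries, bars the mean ± SD (n = 3, or 2 for Control), and each axis starts at 0. The 3 CM KO libraries lie above both Control libraries in 6 panels and below them in the panel of Il15, and 1 Total KO library reaches into the CM KO range of Ccr1.

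Among the 7 interleukin ligands, Il15 alone passed in any comparison in limma with all libraries. Il15 (chr8:82331624-82403252) sustains natural killer cells and memory T cells and is presented by Il15ra. It read 46.3, 115 and 145 in CM KO, 369, 176 and 207 in EC KO, 181, 373 and 382 in Total KO, and 473 and 286 in Control. All CM KO libraries lay below the 8 others, and CM KO replicate 1 lowest. Il15 fell in CM KO relative to Control (-1.99 ± 0.47; limma, adjusted p = 0.0307), and was also lower than in EC KO (-1.36 ± 0.42; limma, adjusted p = 0.0392) and Total KO (-1.68 ± 0.42; limma, adjusted p = 0.0189). Without CM KO replicate 1 (-1.51) and likewise without Control replicate 1 (-1.63) or 2 (-2.35) the difference from Control did not pass. Nor did that from EC KO without CM KO replicate 1 (-0.88) and likewise without EC KO replicate 1 (-1.05) or 3 (-1.46) and likewise without Total KO replicate 3 (-1.36), or by edgeR or DESeq2. The difference from Total KO did not pass without CM KO replicate 1 (-1.19) and likewise without Total KO replicate 2 (-1.51) or 3 (-1.49). Summed cardiomyocyte markers were also lower in all 3 CM KO libraries (700400 to 1029000) than in the other 8 (1146000 to 1312000), with a median log2 difference of -0.37 from Control over the 8 genes. Their part in the fall of Il15 was not tested.

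The chains that bind Il15 did not pass against Control. Il15ra read 196, 346 and 231 in CM KO, 259.8, 337 and 352 in EC KO, 409, 349 and 340.3 in Total KO, and 342 and 341 in Control. CM KO held both the lowest library and one level with Control, and the difference was -0.45 ± 0.21 (limma, adjusted p = 0.246). Il2rb, the signalling chain shared with Il2, averaged 9.61 ± 3.32 in CM KO, 4.06 ± 4.46 in EC KO, 7.73 ± 2.27 in Total KO and 9.53 ± 0.819 in Control. Il2rg, the common gamma chain, averaged 137 ± 37.6 in CM KO, 111 ± 15.1 in EC KO, 116 ± 1.17 in Total KO and 141 ± 13.6 in Control.

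Il33, an alarm cytokine released by damaged cells, had 127, 78.4 and 119 in CM KO, 78.5, 25.1 and 57.5 in EC KO, 75.1, 50.3 and 42.5 in Total KO, and 83.2 and 41.8 in Control. CM KO lay above Total KO and overlapped the other groups, and with all libraries no difference passed in limma, while edgeR and DESeq2 called that from EC KO (CM KO minus EC KO 1.11 ± 0.39; limma, adjusted p = 0.0668; edgeR 1.22, adjusted p = 0.0411; DESeq2 1.16, adjusted p = 0.0172) and DESeq2 that from Total KO (0.96, adjusted p = 0.0434). Il18, a product of inflammasome cleavage, read 16.2, 9.07 and 5.72 in CM KO, 6.04, 2.51 and 0 in EC KO, 5.09, 2.56 and 4.17 in Total KO, and 3.11 and 3.73 in Control. CM KO lay above Control. With all libraries no difference passed in limma. By edgeR CM KO minus EC KO passed (2.58, adjusted p = 0.0298), as it did by limma without EC KO replicate 1 (2.49, adjusted p = 0.025). The EC KO libraries held 1, 3 and 0 reads of Il18. Il18 too reached the bound of 5 through CM KO (mean 10.3), with means of 2.85 in EC KO, 3.94 in Total KO and 3.42 in Control. Its calls are therefore not independent of the rule for members. Il34, the second ligand of Csf1r, read 91, 89.4 and 63.8 in CM KO, 109, 92.8 and 105 in EC KO, 70.0, 75 and 86.8 in Total KO, and 87.8 and 79.8 in Control. It lay higher in all EC KO than in all Control libraries and passed in no comparison in limma (EC KO minus Control 0.28 ± 0.19; limma, adjusted p = 0.652). Il16, Il17d and Il7 had means of 177, 45.9 and 8.52 and passed in none either.

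Of the 27 interleukin receptor chains, 3 rose in CM KO against Control (beside 3.1% of all genes), 8 were higher and 1 lower in CM KO than in EC KO (beside 9.9% and 8.08%), and 7 were higher and 1 lower in CM KO than in Total KO (beside 7.73% and 7.63%). Their medians in the 3 comparisons, 0.21, 0.24 and 0.30 on the log2 scale, were below those of the chemokine ligands (0.78, 1.11 and 0.72).

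Il4ra and Il13ra1 together form the receptor through which Il4 and Il13 act on macrophages and fibroblasts. Neither ligand was among the members. Il13ra1 (chrX:36112108-36171262) read 1149, 1042 and 1129 in CM KO, 719, 679 and 608 in EC KO, 822, 819 and 648 in Total KO, and 714 and 860.4 in Control. Its CM KO libraries were close together and above all others. Il13ra1 rose in CM KO relative to Control (0.50 ± 0.13; limma, adjusted p = 0.0452), and was also higher than in EC KO (0.73 ± 0.12; limma, adjusted p = 0.00176) and Total KO (0.54 ± 0.12; limma, adjusted p = 0.0102). Both differences between knockouts passed in every alternative, but that from Control not without any one of CM KO replicates 1 and 3, EC KO replicates 2 and 3, Total KO replicates 1 and 2, Control replicate 1 (0.36 to 0.50).

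Il4ra (chr7:125552271-125579474) had 768, 565 and 639 in CM KO, 453, 424 and 534 in EC KO, 424, 402 and 436 in Total KO, and 413 and 488 in Control. CM KO lay above all other libraries. The chain rose relative to Control (0.54 ± 0.14; limma, adjusted p = 0.0483), and was also higher in CM KO than in EC KO (0.48 ± 0.13; limma, adjusted p = 0.0226) and Total KO (0.63 ± 0.13; limma, adjusted p = 0.00819). The first of these was lost without any one of CM KO replicates 1 and 3, EC KO replicates 1 and 2, Total KO replicates 1, 2 and 3, Control replicates 1 and 2 (0.42 to 0.66). The second was lost without CM KO replicate 1 (0.36) or 3 (0.49) and likewise without EC KO replicate 1 (0.45) or 2 (0.41), and the third passed without any single library left out.

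Il17ra (chr6:120463181-120483731), the chain common to the Il17 receptors, read 191, 117 and 141 in CM KO, 96.7, 92.8 and 74.3 in EC KO, 78.9, 92.1 and 76.7 in Total KO, and 72.3 and 79 in Control. The CM KO libraries lay above the 8 others. Il17ra rose relative to Control (0.94 ± 0.21; limma, adjusted p = 0.0261), and was also higher than in EC KO (0.74 ± 0.19; limma, adjusted p = 0.0188) and Total KO (0.82 ± 0.19; limma, adjusted p = 0.0142). The call against Control was lost without CM KO replicate 1 (0.75) or 3 (0.97) and likewise without Control replicate 1 (0.88) or 2 (1.01). That against EC KO was lost without CM KO replicate 1 (0.55) and likewise without EC KO replicate 3 (0.62), and that against Total KO without CM KO replicate 1 (0.63) and likewise without Total KO replicate 3 (0.77). Its partner chains Il17rc, Il17rd and Il17re passed in no comparison in limma with all libraries, with differences of 0.34 ± 0.17, 0.17 ± 0.15 and 0.06 ± 0.41 between CM KO and Control.

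Il10ra, the ligand-binding chain for the anti-inflammatory Il10, had 234, 133 and 154 in CM KO, 60.4, 97.8 and 71.6 in EC KO, 76.4, 104 and 109 in Total KO, and 115 and 93.9 in Control. CM KO lay above all others, and EC KO and Control overlapped. It was higher in CM KO than in EC KO (1.16 ± 0.24; limma, adjusted p = 0.00662) in every alternative, and than in Total KO (0.82 ± 0.24; limma, adjusted p = 0.0358), but there not without any one of CM KO replicates 1 and 3, Total KO replicates 1, 2 and 3 (0.58 to 0.91). Il10rb, the second chain, is shared with other cytokines and read 1841, 2061 and 2091 in CM KO, 2054, 2315 and 2027 in EC KO, 2504, 2159 and 2585 in Total KO, and 2313 and 2284 in Control. CM KO lay below both Control libraries, and the difference did not pass (-0.20 ± 0.11; limma, adjusted p = 0.305).

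Il21r, the receptor of the T cell cytokine Il21, read 34.7, 15.5 and 22.1 in CM KO, 6.04, 5.02 and 2.65 in EC KO, 2.55, 11.1 and 3.34 in Total KO, and 10.9 and 6.71 in Control. CM KO again lay above all other libraries. It was higher than in EC KO (2.15 ± 0.53; limma, adjusted p = 0.0154), a call lost without CM KO replicate 1 (1.86), and than in Total KO (2.07 ± 0.53; limma, adjusted p = 0.0214), a call lost without CM KO replicate 1 (1.78) or 3 (2.09) and likewise without Total KO replicate 1 (1.72) or 3 (1.87). Il27ra, which transmits Il27, had 80.2, 44.7 and 40.9 in CM KO, 18.1, 24.2 and 26.5 in EC KO, 38.2, 39.2 and 24.2 in Total KO, and 29.5 and 33.5 in Control. It was highest in CM KO, most of all in replicate 1, and passed against EC KO (1.18 ± 0.30; limma, adjusted p = 0.0168), but not without CM KO replicate 1 (0.89) and likewise without EC KO replicate 1 (1.03). Il3ra, the chain that binds the growth factor Il3, read 74.1, 53.1 and 70.3 in CM KO, 12.1, 43.5 and 31.8 in EC KO, 43.3, 46 and 55.9 in Total KO, and 38.9 and 48.5 in Control. EC KO replicate 1, at 2 reads, was far below the rest. CM KO minus EC KO passed (1.31 ± 0.36; limma, adjusted p = 0.0261), a call lost without CM KO replicate 1 (1.22) or 3 (1.25). The call was also lost without the 3 knockout replicates 1 together and in a fit of the 2 groups compared. Without EC KO replicate 1 the difference was smaller and passed (limma 0.79, adjusted p = 0.0452).

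Il1rl1, or ST2, the receptor of Il33, had 22.4, 29.1 and 29.4 in CM KO, 18.1, 5.02 and 11.5 in EC KO, 11.5, 5.97 and 11.7 in Total KO, and 17.9 and 20.1 in Control. The CM KO libraries lay above all others, while Total KO lay below Control. It was higher in CM KO than in EC KO (1.30 ± 0.42; limma, adjusted p = 0.0498) and Total KO (1.43 ± 0.42; limma, adjusted p = 0.0381). The first call was at the threshold and was lost without any one of CM KO replicates 1, 2 and 3, EC KO replicates 2 and 3, Total KO replicates 1 and 3, Control replicates 1 and 2 (0.85 to 1.42), and the second without any one of CM KO replicates 1, 2 and 3, Total KO replicates 1, 2 and 3 (1.15 to 1.58). Il1r1, the signalling receptor of Il1, lies near Il1rl1 on chromosome 1 and read 348, 298 and 321 in CM KO, 224, 261 and 283 in EC KO, 236, 218 and 226 in Total KO, and 299 and 258 in Control. Total KO lay below Control and CM KO overlapped Control. CM KO was higher than Total KO (0.51 ± 0.12; limma, adjusted p = 0.0152), though not without CM KO replicate 1 (0.45) and likewise without Total KO replicate 2 (0.48) or 3 (0.50).

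Il2ra, the chain that gives the Il2 receptor its high affinity, was the only interleukin receptor chain whose lower level in CM KO passed in limma with all libraries. It had 17.7, 11.7 and 10.6 in CM KO, 24.2, 25.9 and 28.3 in EC KO, 31.8, 33.2 and 50.05 in Total KO, and 25.6 and 21.6 in Control. CM KO lay below all 8 others and Total KO above them. It was lower than in Total KO (-1.46 ± 0.28; limma, adjusted p = 0.00673) in every alternative that kept the gene, and than in EC KO (-0.95 ± 0.28; limma, adjusted p = 0.0334), but there not without CM KO replicate 2 (-0.88) or 3 (-0.81) and likewise without EC KO replicate 2 (-0.95) or 3 (-0.89). Against Control the differences were -0.81 ± 0.31 (limma, adjusted p = 0.163) in CM KO and 0.65 ± 0.31 (limma, adjusted p = 0.658) in Total KO, and neither passed.

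Il6ra, the ligand-binding chain for Il6, was the single member called by the F test (adjusted p = 0.0288) that passed in no comparison between groups. It read 116, 114 and 94.9 in CM KO, 127, 123 and 124 in EC KO, 89.1, 85.3 and 87.6 in Total KO, and 80.8 and 76 in Control. The 4 groups did not overlap, with EC KO highest, then CM KO, Total KO and Control. EC KO minus Control was 0.66 ± 0.15 (limma, adjusted p = 0.116), and CM KO minus Control 0.45 ± 0.15 (limma, adjusted p = 0.106). Il6st, or gp130, the signalling chain that Il6 shares with Il11 and others, lay between 3909 and 4716 in the 11 libraries. None of its differences passed in limma. Il11ra1, which also pairs with Il6st, averaged 713 ± 88 in CM KO, 642 ± 70.6 in EC KO, 753 ± 99 in Total KO and 799 ± 26.7 in Control, and its reads are uncertain because near-identical copies exist. Il18bp, a secreted inhibitor of Il18, had 177, 207 and 191 in CM KO, 133, 208 and 191 in EC KO, 286, 268 and 211 in Total KO, and 162 and 192 in Control. Total KO was above Control, and the difference did not pass (0.52 ± 0.20; limma, adjusted p = 0.505).

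**Figure D4:**
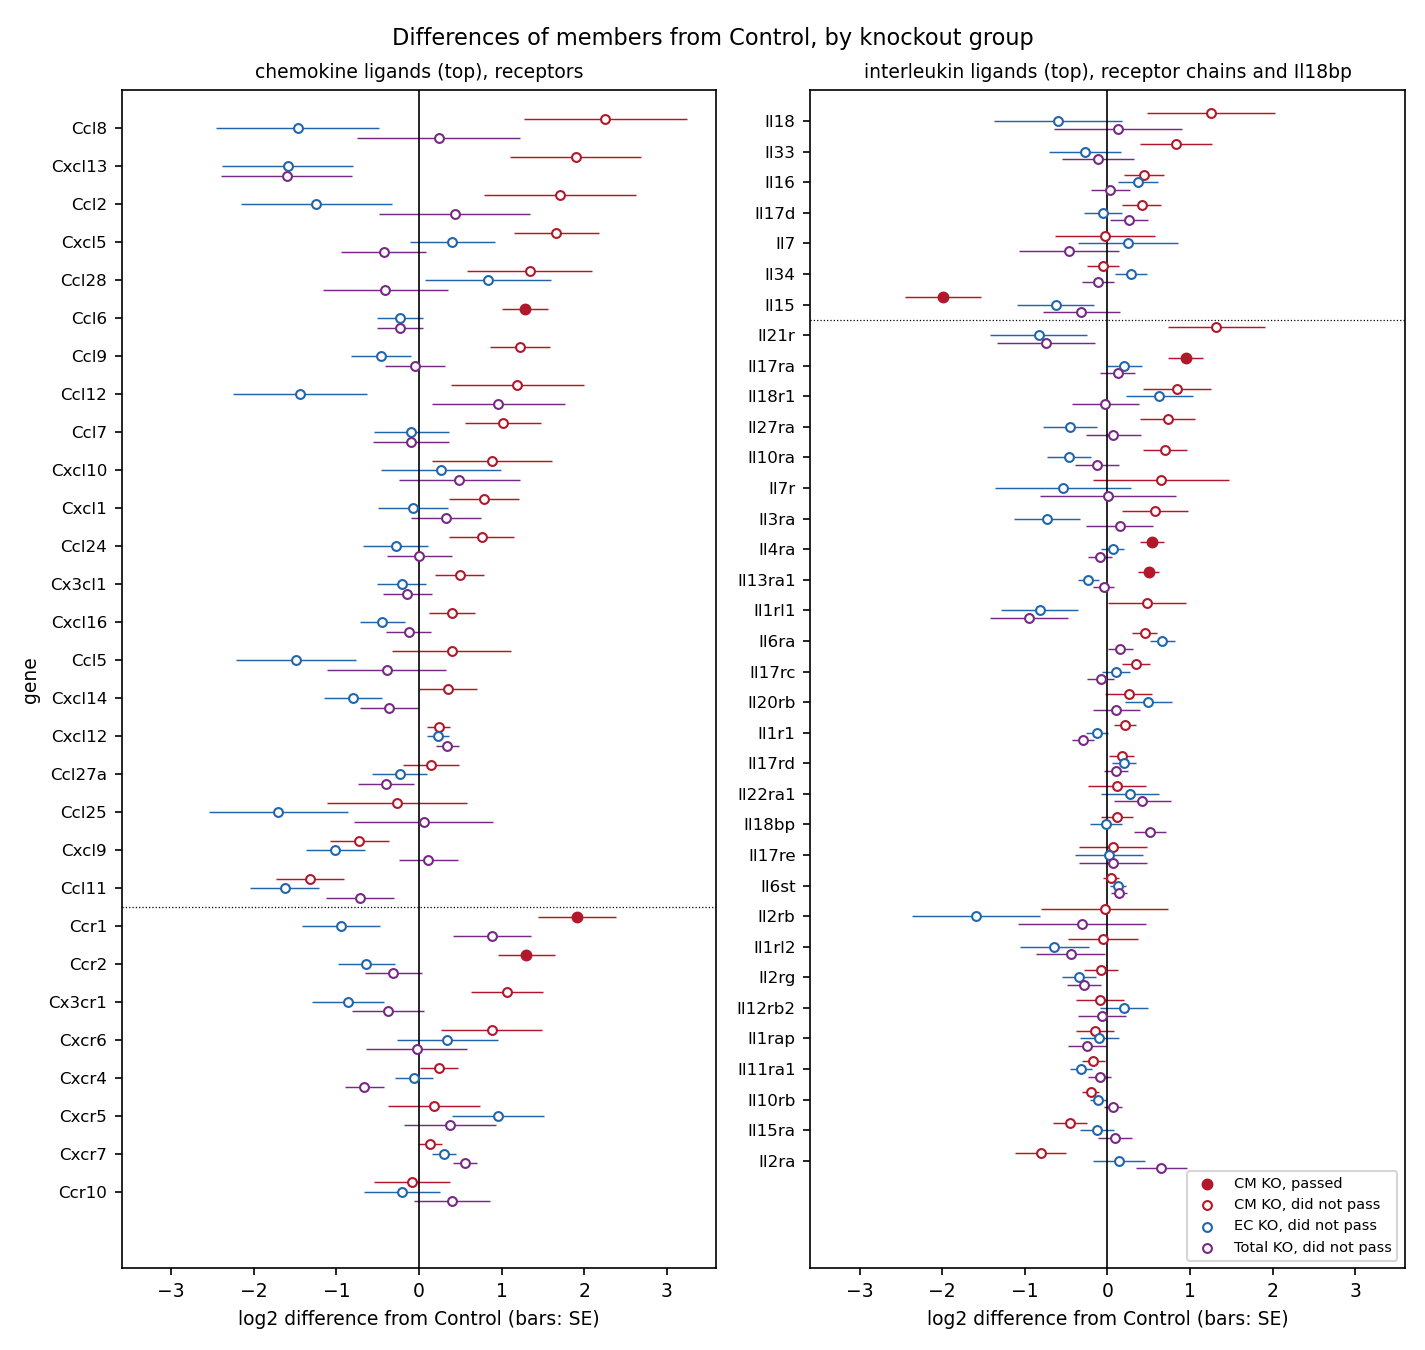
Log2 differences from Control of 64 members in CM KO (red), EC KO (blue) and Total KO (purple), ligands above receptors in each panel and ordered by the CM KO difference; bars are the SE and filled points passed (limma, adjusted p under 0.05). Filled points occur for CM KO alone, 6 above 0 and that of Il15 below 0.

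Neither of the other knockouts differed from Control in any member by limma. In EC KO against Control 0 of 65 passed, where 0.261% of all genes did; 5 had an unadjusted p under 0.05, of which Il6ra was higher and Ccl11, Cxcl9, Il11ra1 and Cxcl14 were lower, and edgeR called 0 and DESeq2 1 (Ccl11, lower). In Total KO against Control 0 passed, where 0.0798% of all genes did; 5 had an unadjusted p under 0.05 (Cxcr7, Il18bp and Cxcl12 higher, Cxcr4 and Il1r1 lower), and edgeR and DESeq2 called 0. Total KO against EC KO gave 0, beside 0.0363% of all genes, with 10 at an unadjusted p under 0.05 and 0 by edgeR and DESeq2. The member medians of these comparisons were -0.20, -0.03 and 0.19 on the log2 scale, beside -0.02, -0.002 and 0.02 for all genes. Of the 12 Ccl ligands, 11 had a negative difference in EC KO against Control (median -0.85), and 5 of these genes were at 0 in EC KO replicate 1, the library of fewest reads. The SE of a member's difference from Control ran from 0.10 to 0.99, with a median of 0.36. Differences well above their SE also went uncalled, such as Il6ra (0.66 ± 0.15) and Ccl11 (-1.63 ± 0.41) in EC KO minus Control. Changes well above the SE could therefore have been missed.

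Levels can be compared between genes only per length. Per kilobase of merged exons (GENCODE M21), the mean over the 11 libraries was highest for Il10rb (578.6 normalized reads per kilobase), Cxcl12 (543.5), Cxcr7 (516.2), Il6st (380.5) and Cxcl14 (327.1). The exons of Il10rb share 569 bases with Gm21970 on the same strand, and those of 19 members in all overlap another gene, so their reads are uncertain to that extent. On the same scale Ccl6 stood at 160.6, Il15 at 110.6 and Ccl8 at 75.1, above Ccr1 (7.7) and Ccr2 (5.4). The level of Ccl8 in normalized reads per kilobase was 179.8 in CM KO, against 23.1 in EC KO, 43.3 in Total KO and 43.4 in Control. For Il15 it was 45.1 in CM KO, against 110.7 in EC KO, 138.0 in Total KO and 167.8 in Control.

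Other genes of these pathways were taken as a list of scavenging receptors, kinases, Stat factors, Socs inhibitors, adaptors and growth factor receptors that are not members. Of 75 tested, 8 rose and 0 fell in CM KO against Control (beside 3.1% and 2.24% of all genes). In CM KO, 20 were higher and 4 lower than in EC KO (beside 9.9% and 8.08%; the 4 are 5.33%), and 12 were higher and 3 lower than in Total KO (beside 7.73% and 7.63%). In a check added after seeing the data, 4 of the 8 (Ccrl1, Cd74, Csf1r and Socs3) still rose against Control without CM KO replicate 1 and 0 without Control replicate 1 (limma); edgeR and DESeq2 called all 8. Without CM KO replicate 1, 12 were higher than in EC KO and 6 than in Total KO, and without Total KO replicate 3, 4 were higher than in Total KO. No gene of the list passed in EC KO or Total KO against Control, or between these knockouts, in limma (9, 6 and 12 had an unadjusted p under 0.05). Median differences of CM KO were 0.33, 0.31 and 0.32 on the log2 scale against Control, EC KO and Total KO.

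Among the scavenging receptors, Ccbp2, now named Ackr2, which removes inflammatory Ccl chemokines, rose in CM KO relative to Control (1.15 ± 0.25; limma, adjusted p = 0.0237). It read 81, 95.8 and 72 in CM KO, 24.2, 28.4 and 31.8 in EC KO, 30.6, 41.8 and 28.4 in Total KO, and 33.4 and 40.3 in Control. Ccrl1, now Ackr4, which scavenges other chemokines, also rose (1.75 ± 0.38; limma, adjusted p = 0.0237), with 345 in CM KO replicate 1 and 135 and 111 in the other CM KO libraries, against 42.0 and 61.1 in Control. Csf1r, the receptor through which Csf1 and Il34 keep macrophages alive, rose (1.09 ± 0.18; limma, adjusted p = 0.00861), as did Csf1 itself (0.73 ± 0.18; limma, adjusted p = 0.0342); Csf1r is also one of the macrophage markers. Cd74, the invariant chain and a receptor of a macrophage cytokine, rose (0.58 ± 0.12; limma, adjusted p = 0.0214), as did the phosphatase gene Ptpn6 (1.11 ± 0.26; limma, adjusted p = 0.0278).

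Along the Jak and Stat route, Stat3 (0.49 ± 0.11; limma, adjusted p = 0.0239) and its feedback inhibitor Socs3 (1.14 ± 0.27; limma, adjusted p = 0.0332) rose in CM KO relative to Control. Stat3 in EC KO minus Control was 0.51 ± 0.11, which did not pass (limma, adjusted p = 0.0845). Jak1 was lower in CM KO than in EC KO (-0.67 ± 0.11; limma, adjusted p = 0.00205) and Total KO (-0.83 ± 0.11; limma, adjusted p = 0.0011), and Ptpn11, a phosphatase of cytokine receptors, lower than in EC KO (-0.37 ± 0.09; limma, adjusted p = 0.0146). Higher in CM KO than in EC KO were the receptor chains Csf2ra (0.80 ± 0.18) and Csf2rb (1.06 ± 0.23), which bind Csf2 and, for Csf2rb, also serve Il3ra. So were the inflammasome adaptor Pycard (1.49 ± 0.27) and the peptidase Dpp4 (1.30 ± 0.27), which trims chemokines. Rgs2, a brake on G protein signalling, was higher in CM KO than in Total KO (1.05 ± 0.25; limma, adjusted p = 0.0152).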

How the data were processed

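Ribosomal RNA was removed from 400 ng of total RNA and stranded libraries were made, per the labels' protocols. The submitters' processing notes name TopHat2, HTSeq 0.8.0, DESeq2 (given as 3.5) and mm10. The deposited signal values are gene-level reads scaled by the authors with a single factor for each library. Dividing by that step gave whole reads, to a tolerance of 0.05, for all 257620 values. No column of sample values was unused.

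One limma fit (3.58.1, R 4.3.3; trended prior variance) of log2(value + 1) covered 13787 genes with a mean of at least 5 in all 11 libraries, with 6 comparisons and an F test. Each had its own Benjamini-Hochberg adjustment, with calls under 0.05. Adding 1 shrinks changes of low genes, but a value of 0 in EC KO replicate 1 can enlarge a difference. For Ccl8, CM KO minus EC KO was 3.73 with that library and 2.32 without it. The scripts were tested on simulated data. Alternatives were pseudocounts, filters, scalings, library weights, 2-group fits, omitted libraries, and edgeR 4.0.16 (quasi-likelihood) and DESeq2 1.42.0 on recovered reads. Members, gene lists and the rule for named genes (every member passing somewhere, and the 3 lowest F test p of each role otherwise) were chosen with earlier results of these data known. Upstream sequences are RefSeq's (GRCm38.p6). The values of 1 member and of 1 gene of the partner list are not reported here, though counts include them.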

Additional observations from a re-analysis of the deposited data

How the results depend on the processing

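No member's difference that passed changed sign in any of 23 alternatives that gave it a value. In CM KO against Control, 8 members passed, and 4 when low genes were kept in, 5 with a mean of at least 50 (29 members tested), 2 with a weight per library, 14 by edgeR, 13 by DESeq2 and 2 in a fit of the 2 groups; leaving out 1 library gave 0 to 11. Against EC KO, 22 passed, 9 with a mean of at least 50, and 11 to 22 with 1 library left out. Against Total KO, 17 passed, 10 with a mean of at least 50, 9 without the 3 knockout replicates 1 together, and 7 to 19 with 1 library left out. In EC KO against Control, 0 passed and DESeq2 called 1; in Total KO against EC KO, 0 passed and library weights gave 1. The F test called 17 members, 10 with a mean of at least 50, 28 with library weights, 26 by DESeq2, 10 without the 3 replicates 1, and 6 to 21 with 1 library left out. Calls over all genes shifted too. In CM KO against Control they were 737, and 543 with low genes kept in and 519 with library weights. They were 1041 by edgeR, 1277 by DESeq2 and 63 in the 2-group fit. The F test called 1852 genes, 3252 with library weights, 2770 by DESeq2 and 980 without the 3 replicates 1. Without CM KO replicate 1, 357 passed against Control, 1415 against EC KO, 1017 against Total KO and 989 in the F test. The cause of these shifts was not tested, except that the filter at 50 leaves fewer members. Leaving out CM KO replicate 1 gave the lowest counts: 0 against Control, 11 against EC KO, 7 against Total KO and 6 in the F test. Against Control, omitting Control replicate 1 gave 0, Control replicate 2 gave 1, CM KO replicate 3 gave 3, and either EC KO replicate 2 or Total KO replicate 2 gave 5. Omitting Total KO replicate 3 gave 8 against Total KO and 10 in the F test, which gave 6 when CM KO replicate 3 was omitted. Omitting a Control library leaves a lone one, assumed to vary like the other groups. Equal library totals moved the median of all genes to 0.13 and 0.15 in CM KO against EC KO and Total KO, and to 0.08 against Control. No paired analysis was possible because the labels carry no number that links libraries of different groups.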
